A study of Mus musculus with 6 samples.

Results

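The levels of 9 regulators of the primitive streak and mesendoderm were followed through differentiation of 2 mouse embryonic stem cell lines: the T-box genes T, Eomes and Tbx6, the homeobox genes Mixl1, Gsc, Evx1 and Lhx1, the basic helix-loop-helix gene Mesp1, and Amot, which encodes angiomotin. Members were taken as every probe set, a group of probes for 1 transcript, that the array's annotation gave to 1 of these names alone. This found 12 probe sets for 8 of the 9 genes, out of 18193 genes named on the array. No probe set was given to T in the annotation used, so T was not analysed here. Where a gene had several probe sets, the one with the highest mean signal stood for the gene. In GRCm38.p6 coordinates the 4 genes that could be tested lie at chr9:118478186-118486132 (Eomes), chrX:145446424-145505966 (Amot), chr6:52313498-52318389 (Evx1) and chr7:79792241-79793590 (Mesp1).

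RNA of 6 samples was hybridised to 1 Affymetrix array each, 1 sample for each line at days 0, 4 and 7. Both lines are Dnmt1/3a/3b triple knockout cells, which lack the enzymes that methylate DNA, and both were given back a DNMT1 that is expressed ubiquitously. The deletion line carries a mutant DNMT1 without its N-terminal 602 amino acids, and the full-length line carries the whole protein. Day 0 cells were stem cells in medium with 10% FBS and LIF, the cytokine that holds mouse stem cells in the undifferentiated state. Day 4 cells had been embryoid bodies for 1 day and adherent cells for 3 days, without LIF. Day 7 cells had then spent 3 days in medium with 10% KSR and 10 ng/ml Activin A, which the submitters added to bring about primitive streak formation. The day 0 sample of the deletion line is described as differentiated cells in its source label and as day 0 in its title, and the title was used. Each DNMT1 form was present in 1 line only, so an effect of the form cannot be told apart from one of the line, and no sample was replicated.

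In the mouse embryo the primitive streak is where epiblast cells leave the epithelium to become mesoderm and definitive endoderm. Nodal and Wnt signals start it, with BMP signals from the neighbouring extraembryonic tissue acting upstream, and Activin A stands in for Nodal in culture because both act through the same receptors and SMAD2/3. T and Eomes are among the first factors of the streak, Mixl1 and Gsc mark its mesendoderm and anterior end, Mesp1 the earliest mesoderm and Tbx6 the paraxial mesoderm. Eomes, Lhx1 and Gsc are also used by visceral endoderm, and Eomes by trophoblast, so none of these 3 is a marker of the streak alone.

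Levels are log2 MAS5 signals as deposited. A floor of 5.37 marks the dim range, the median over arrays of each array's 40th percentile, and values below it have no order among themselves. This cut-off is a percentile, so it does not measure background. Array medians lay between 6.02 and 6.19. Genes whose mean signal reached the floor were called measured and tested, 13277 in all, and values below the floor were raised to it before any difference. A difference between 2 arrays of which 1 is at the floor is a lower bound in size, and a fitted change is not.

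By mean signal 4 of the 8 members reached the floor: Eomes, Evx1, Mesp1 and Amot. Mixl1, Gsc, Lhx1 and Tbx6 had mean signals below the floor and were not tested, so only their levels are given. Of the 12 probe sets, 7 had a mean at or above the floor and 5, those of Amot and Eomes, lay above it on all 6 arrays. Because the filter uses the mean over all arrays, the measured members are the brighter ones and do not stand for the whole set.

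**Figure D1:**
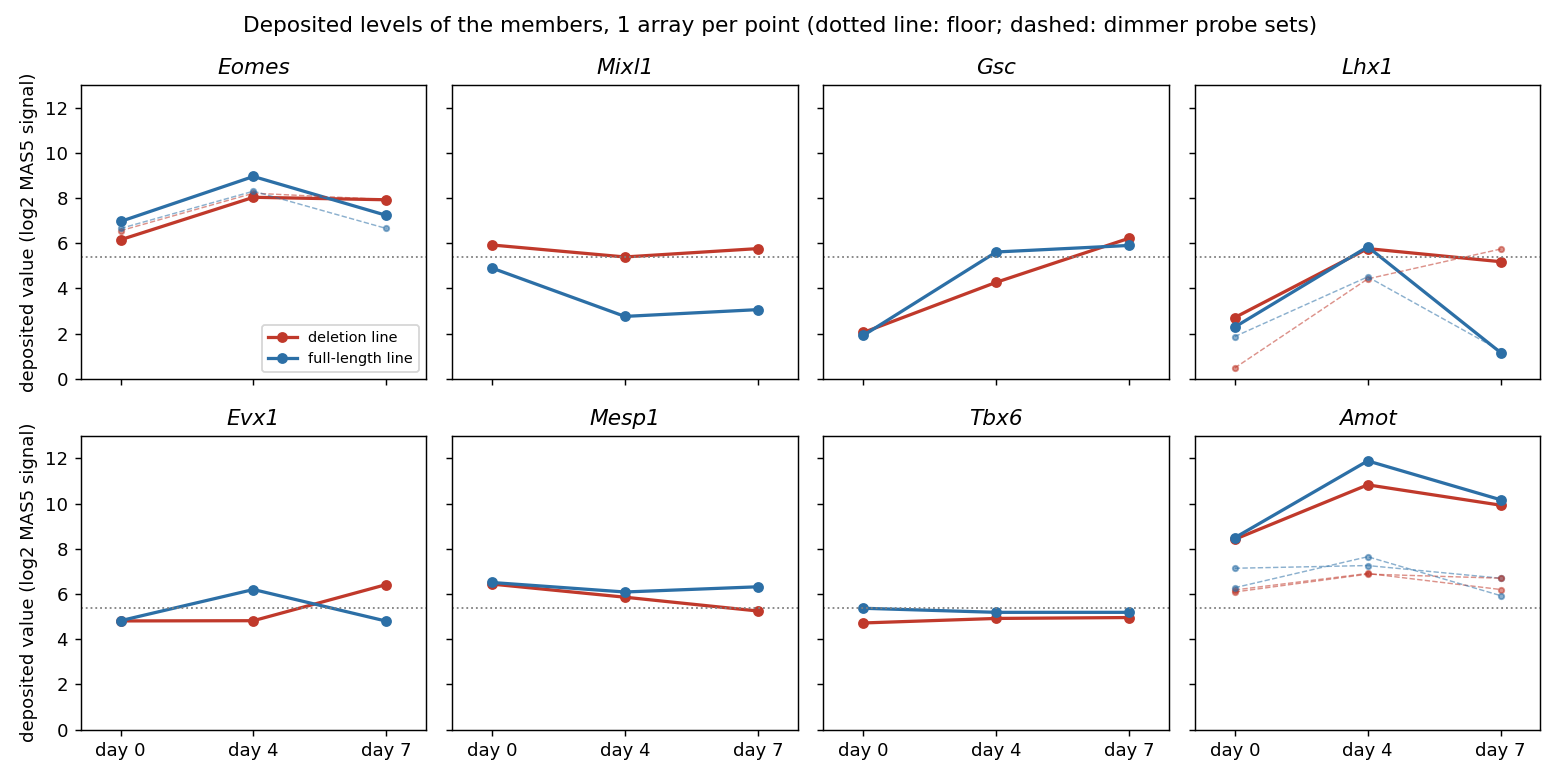
Deposited log2 MAS5 signal (y axis) at days 0, 4 and 7 (x axis) for the 8 members with a probe set, in the deletion line (red) and the full-length line (blue), 1 array per point. Solid lines are the brightest probe set, dashed lines the dimmer ones and the dotted line the floor of 5.37. Amot and Eomes stand highest at day 4 in both lines, while Mixl1, Gsc, Lhx1, Evx1, Mesp1 and Tbx6 read at most 6.51 on any array.

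Eomes, which encodes a T-box activator needed for mesoderm to leave the streak and for definitive endoderm, read 6.15, then 8.03 and then 7.92 at days 0, 4 and 7 with the deletion form, against 6.96, 8.95 and 7.23 in the full-length line. Both day 4 levels were above both day 0 levels. Its other probe set read 6.55, 8.21 and 7.93 in the deletion line and 6.65, 8.30 and 6.65 in the full-length line. The probe sets gave close values for day 4 over day 0, with log2 changes of 1.88 and 1.66 in the deletion line and 1.99 and 1.65 in the full-length line. Fitted over both lines, the change was log2 1.93 (3.82-fold, SE 0.45, 95% interval 0.89 to 2.98), higher in 2 of 2 lines, and missed the threshold of 0.05 after adjustment over all genes (limma, adjusted p = 0.088).

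From day 4 to day 7, the Activin A phase, the lines gave different values for Eomes. The log2 change was -0.11 in the deletion line and -1.72 in the full-length line at the brightest probe set, and -0.28 and -1.65 at the other. At day 7 the deletion line was therefore above the full-length line, by log2 0.69 and 1.28 at the 2 probe sets. The line difference at days 0 and 4 depended on the probe set, -0.81 and -0.92 at the brightest against -0.10 and -0.09 at the other. With 1 array per line and day the difference between the lines' changes was not tested, and the mean change over both lines was not called (log2 -0.91, SE 0.45, 95% interval -1.96 to 0.13, limma adjusted p = 0.48). Against day 0, the day 7 change was 1.77 in the deletion line and 0.27 in the full-length line (fitted 1.02, SE 0.45, limma adjusted p = 0.30).

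Amot, which encodes a scaffold protein of cell junctions that binds the Hippo effector YAP and that mouse embryos need for movement of the anterior visceral endoderm, rose at day 4. It read 8.42, then 10.83 and then 9.93 on the deletion arrays of days 0, 4 and 7, against 8.49, 11.89 and 10.17 in the full-length line. The 2 day 0 arrays differed by log2 -0.07 between lines, and every later array was above both. Day 4 over day 0 gave log2 2.41 in the deletion line and 3.40 in the full-length line, and the fitted change was 2.90 (7.49-fold, SE 0.27, limma adjusted p = 0.0063). Day 7 was also above day 0, by 1.51 and 1.68, with a fitted change of 1.59 (3.02-fold, SE 0.27, limma adjusted p = 0.048). Between days 4 and 7 the log2 change was -0.90 in the deletion line and -1.72 in the full-length line, and was not called (-1.31, SE 0.27, limma adjusted p = 0.16).

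The dimmer Amot probe sets showed smaller differences. One read 6.18, 6.91 and 6.20 in the deletion line and 7.14, 7.26 and 6.70 in the full-length line, and the other 6.09, 6.88 and 6.70 in the deletion line and 6.28, 7.65 and 5.93 in the full-length line. Day 4 was above day 0 in both lines at each of them. Fitted on their own over 23786 probe sets, an alternative chosen after the data were seen, they gave 0.42 and 1.08 for day 4 over day 0 (limma adjusted p = 0.64 and 0.29). For day 7 over day 0 they gave -0.21 and 0.13, so the day 7 call rests on the brightest probe set. Which Amot transcripts each probe set reads was not examined.

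One of the 4 tested members was called higher between days 4 and 0, Amot, against 0.881% of all 13277 genes called higher in that comparison, and 0 were called lower, against 0.7%. Between days 7 and 0 Amot was again the 1 called member, where 0.64% of genes were called higher and 0.392% lower. Between days 7 and 4 none of the 4 was called, where 0.0151% of genes were called higher and 0% lower. Their unadjusted p in that comparison lay at 0.0015 for Amot, 0.079 for Eomes, 0.83 for Evx1 and 0.74 for Mesp1. Counted by size alone, Eomes and Amot were at least 2-fold higher at day 4 than at day 0 in both lines, as were 3.05% of all measured genes. Only Amot was so at day 7 against day 0, with 2.36% of measured genes. Each day's arrays enter 2 of the 3 day comparisons, so their values are not independent of each other.

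**Figure D2:**
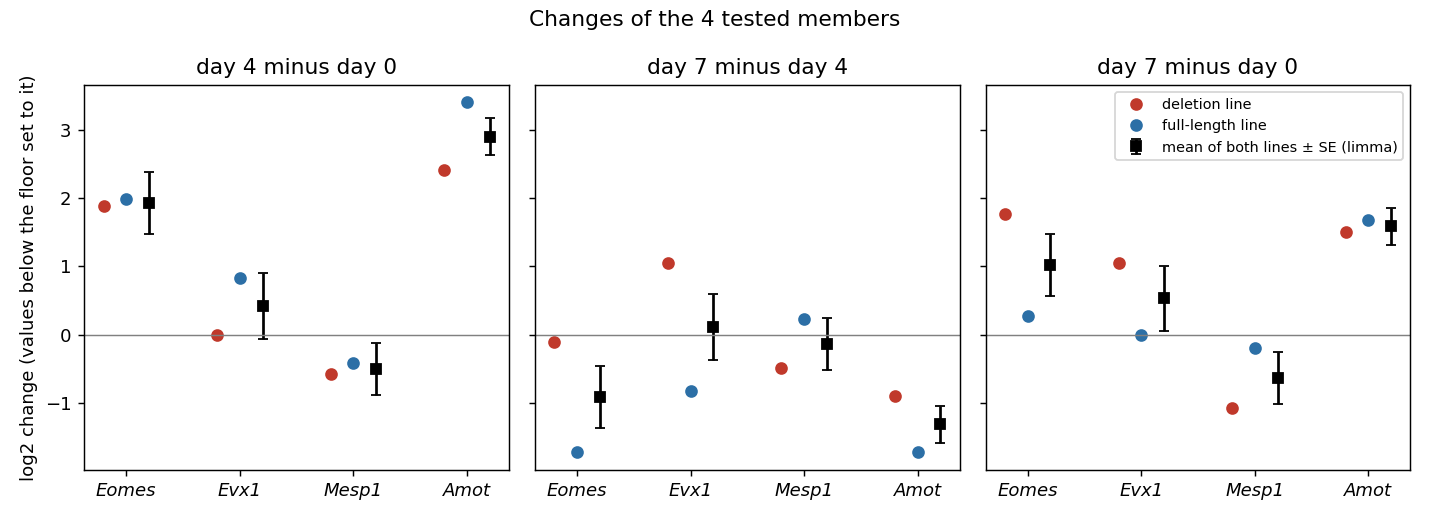
Log2 changes (y axis) of the 4 tested members (x axis) for day 4 minus day 0, day 7 minus day 4 and day 7 minus day 0, in the deletion line (red), in the full-length line (blue) and fitted over both (black squares, mean ± SE from limma, 2 lines). Amot and Eomes lie above 0 in both lines in the first panel, and in the middle panel Eomes is at -0.11 in the deletion line and -1.72 in the full-length line.

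The Amot call at day 4 was lost with probe sets averaged, without the filter on dim genes, without the variance trend or prior, and when any day 0 or day 4 array was left out, with log2 values from 1.47 to 3.36. The call at day 7 was kept with arrays scaled to equal medians and lost under each of the other 14 alternatives.

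Promoter windows are shown for Eomes and Amot, the tested members that stood highest at day 4 in both lines. Each window spans 250 bases before to 50 after the RefSeq start. They are shown because the lines differ in the enzyme that maintains methylation at CpG dinucleotides. Methylation itself was not measured on these arrays. The windows are from RefSeq, build GRCm38.p6, written 5′ to 3′ along the gene with each CpG in capitals. That of Eomes is chr9:118477939-118478238 on the plus strand, at the 5′ end of the gene. That of Amot is chrX:145487590-145487889 on the minus strand, inside the annotated span of the gene (chrX:145446424-145505966).
Eomes: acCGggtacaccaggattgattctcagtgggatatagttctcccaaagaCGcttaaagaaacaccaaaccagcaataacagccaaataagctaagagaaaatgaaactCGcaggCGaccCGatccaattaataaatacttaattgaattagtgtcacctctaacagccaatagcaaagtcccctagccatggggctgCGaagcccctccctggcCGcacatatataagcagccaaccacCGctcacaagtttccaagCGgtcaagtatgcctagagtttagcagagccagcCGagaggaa
Amot: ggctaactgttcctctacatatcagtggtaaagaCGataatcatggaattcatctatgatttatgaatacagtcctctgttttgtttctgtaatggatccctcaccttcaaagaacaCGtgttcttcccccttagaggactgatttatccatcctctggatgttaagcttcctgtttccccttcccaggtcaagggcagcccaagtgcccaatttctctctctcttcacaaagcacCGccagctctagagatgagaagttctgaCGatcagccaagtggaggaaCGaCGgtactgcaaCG

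Eomes held 10 CpG and Amot 7 in the 300 bases, against a median of 7 over 32851 windows of that length. Windows were found for 8 of the 9 members. The organizer genes had more, 31 for Lhx1 and 25 for Gsc, and T had 17, Evx1 12, Tbx6 7 and Mesp1 4. A set of 4 motifs was searched on both strands. The SMAD motif CAGAC was in the windows of 4 of the 8 members, Evx1, Mesp1, Tbx6 and Lhx1, and in 49.6% of all windows. The T-box core AGGTGT was in Evx1, Mesp1 and T, and in 13.7% of all windows. The TCF/LEF motif CTTTGA was in Mesp1, T and Amot, and in 16% of all windows. The FOXH1 motif AATCCACA was in 0 of the 8 members and in 0.855% of all windows. No motif contains another, and a match is a description of these letters only.

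Gsc, a homeobox repressor of the organizer region, read 2.05, then 4.27 and then 6.22 on the deletion arrays of days 0, 4 and 7, and 1.92, 5.61 and 5.90 in the full-length line. It was below the floor on both day 0 arrays and above it on both day 7 arrays. Counted from the floor, day 7 was above day 0 by at least 0.85 in the deletion line and 0.53 in the full-length line. Its mean signal of 35.1 was below the floor signal of 41.2, so it was not tested.

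Lhx1, a LIM homeobox gene of the organizer and visceral endoderm, read 2.71, 5.76 and 5.18 in the deletion line and 2.29, 5.84 and 1.16 in the full-length line. Both day 4 arrays were just above the floor, by 0.39 and 0.47, and the other 4 were below it. Its dimmer probe set passed the floor on 1 array, the deletion line at day 7, at 5.74.

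Mixl1, a homeobox gene of the streak's mesendoderm that responds to Nodal and BMP signals, read 5.92, 5.39 and 5.76 in the deletion line and 4.90, 2.76 and 3.06 in the full-length line. The lines did not overlap: the deletion line was at or just above the floor on its 3 arrays, and the full-length line below it on its 3. It was 1 of 8 members with all deletion arrays above all full-length arrays, as were 4.92% of all named genes. Counted from the floor the line differences were only 0.55, 0.02 and 0.39 at days 0, 4 and 7. In neither line was Mixl1 higher at day 7, after Activin A, than at day 0.

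Tbx6, which acts in paraxial mesoderm, read 4.72, 4.92 and 4.96 in the deletion line and 5.37, 5.19 and 5.19 in the full-length line. It passed the floor on 1 array, full-length day 0, where level and floor both round to 5.37. It was the 1 member with all deletion arrays below all full-length arrays, as were 6.41% of all named genes. Values below the floor have no order here.

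Evx1, a homeobox gene of the posterior streak, read 4.81, 4.82 and 6.42 in the deletion line and 4.82, 6.20 and 4.80 in the full-length line. It was above the floor on 1 array of each line, at day 7 in the deletion line and at day 4 in the full-length line. The day 7 minus day 4 changes had opposite signs, 1.05 in the deletion line and -0.83 in the full-length line. The fitted changes were 0.42 for day 4 over day 0 and 0.11 for day 7 over day 4 (SE 0.48 each, limma adjusted p = 0.74 and 0.96).

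Mesp1, a basic helix-loop-helix gene of the earliest mesoderm, read 6.44, 5.86 and 5.25 in the deletion line and 6.51, 6.09 and 6.32 in the full-length line. In both lines its highest level was at day 0. The fitted day 7 minus day 0 change was -0.63 (SE 0.38, 95% interval -1.52 to 0.25, limma adjusted p = 0.44).

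None of the 4 tested members was called between the lines, and 0% of all 13277 genes were, although 1624 had an unadjusted p under 0.05 by limma. The deletion minus full-length differences were -0.35 for Eomes (SE 0.37, 95% interval -1.20 to 0.51), -0.46 for Amot (SE 0.22, interval -0.97 to 0.06), 0.07 for Evx1 (SE 0.40, interval -0.85 to 0.99) and -0.42 for Mesp1 (SE 0.31, interval -1.14 to 0.30). All 4 intervals reach a change of about 2-fold. Dnmt1 itself, the gene altered in these lines, was at 8.97, 8.37 and 8.94 in the deletion line and 9.65, 8.77 and 8.91 in the full-length line, which was not called either (log2 -0.35, SE 0.22, limma adjusted p = 0.55). Where its probe set lies relative to the deleted part was not examined, so this checks nothing about the labels.

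No gene of a separate list for the streak and nascent mesoderm was called. Of 16 listed genes 8 were measured, and 0 of the 8 passed the test in any of the 4 comparisons. The median change was 0.16 for day 4 over day 0 and -0.72 for day 7 over day 4, beside 0.04 and 0.00 over all genes. Wnt3, Wnt3a, Cdx1, Cdx4, Hoxb1 and Foxc2 lay at or below the floor on all 6 arrays. Fgf8, a growth factor of the streak, was at the floor, the floor and 6.37 on the deletion arrays of days 0, 4 and 7, and at the floor, 9.43 and 6.88 in the full-length line. Wnt8a, a Wnt ligand of the early streak, was at the floor, 5.85 and 5.63 in the deletion line and at the floor, 7.27 and 5.97 in the full-length line. Both stood highest on the full-length day 4 array. Sp5, a target of Wnt signalling, was at 7.27 and then at the floor in the deletion line, and at 8.08, 7.61 and the floor in the full-length line (day 7 minus day 0 log2 -2.31, limma adjusted p = 0.093). Lef1, a partner of beta-catenin, was at 8.86, 9.25 and 8.42 in the deletion line and 9.78, 9.26 and 7.54 in the full-length line.

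All 20 genes of the list of upstream Nodal, Wnt and BMP pathway genes were measured, and none was at the floor on any array. The Wnt ligands Wnt3, Wnt3a and Wnt8a are in the streak list instead, where Wnt3 and Wnt3a were at or below the floor on all 6 arrays. One of the 20 was called in any comparison. Tdgf1, the Nodal co-receptor, fell at day 7 against day 0 (log2 -1.14, SE 0.19, limma adjusted p = 0.048). Its levels at days 0, 4 and 7 were 13.81, 13.10 and 12.95 in the deletion line and 14.07, 13.42 and 12.65 in the full-length line. Nodal was at 11.49, 10.68 and 11.40 in the deletion line and 11.87, 11.46 and 10.51 in the full-length line. Lefty1, a Nodal antagonist that Nodal signalling induces, was at 12.61, 11.41 and 13.54 in the deletion line and 13.84, 13.33 and 11.88 in the full-length line. From day 4 to day 7 both genes were higher in the deletion line and lower in the full-length line, and the fitted changes of -0.12 and 0.34 were not called (limma adjusted p = 0.94 and 0.90). Bmpr1a, a BMP receptor, had a day 4 minus day 0 change of 0.84 (limma adjusted p = 0.13).

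**Figure D3:**
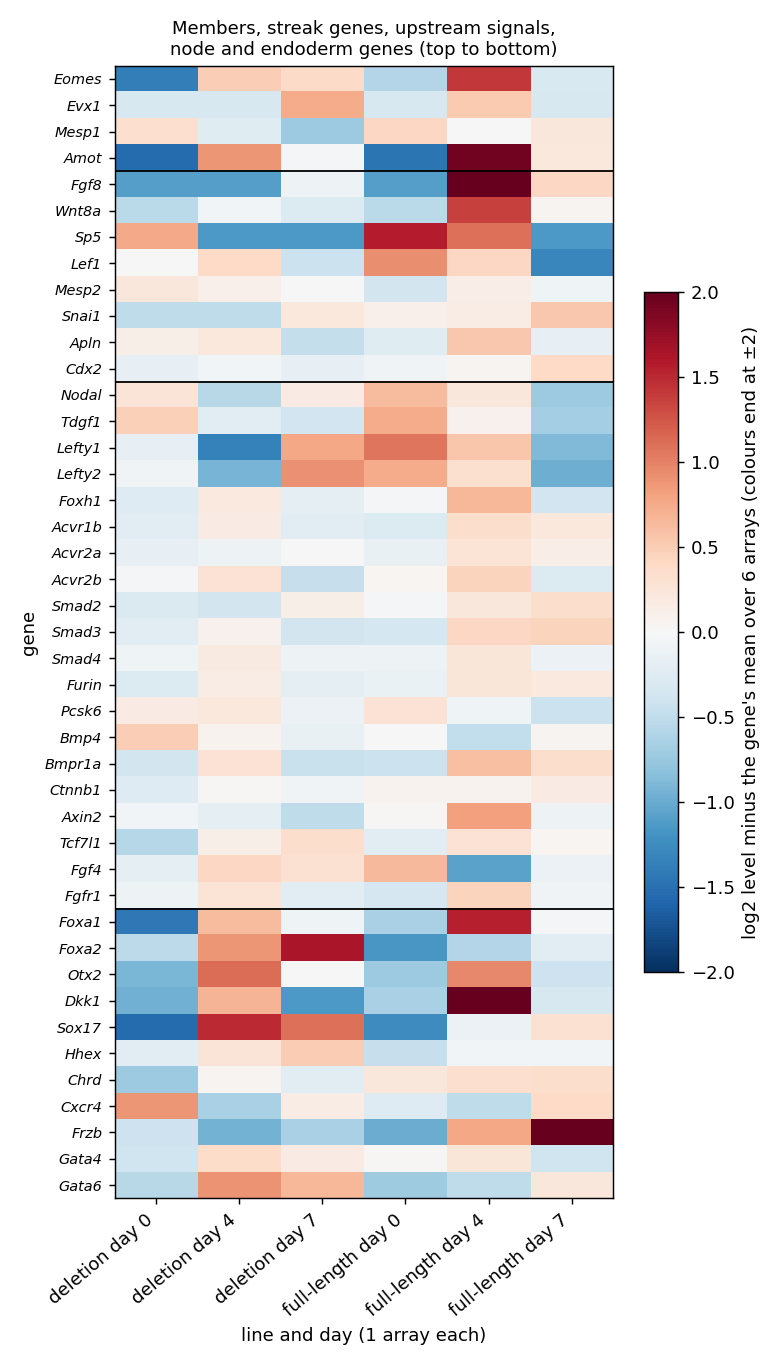
Log2 level minus the gene's mean over the 6 arrays (colour, ending at ±2) for the measured members, other streak genes, upstream signals, and node and endoderm genes (rows, top to bottom, with black lines between groups), on the deletion and then the full-length arrays (columns, 1 array each). Amot, Eomes, Otx2 and Foxa1 are high at day 4 in both lines, and Fgf8 and Wnt8a stand highest on the full-length day 4 array.

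Among 11 measured genes of the node, organizer and definitive endoderm, 3 were called higher at day 4 and 0 lower, against 0.881% and 0.7% of all 13277 genes. The same shares apply to the day 4 counts of the lists that follow. Without the filter on dim genes, 0 genes were called in that comparison. The lists were chosen with earlier results of these data known, so counts set beside these shares are a description only. Of the 11 genes Otx2 is also in the primed epiblast list, and Sox17, Gata4 and Gata6 in the extraembryonic endoderm list, described with the other markers. Dkk1, a Wnt antagonist, rose by log2 2.35 (SE 0.42, limma adjusted p = 0.042), Foxa1, a forkhead factor of endoderm, by 2.14 (SE 0.36, adjusted p = 0.041) and Otx2, a homeobox gene of both epiblast and anterior tissues, by 1.87 (SE 0.20, adjusted p = 0.010). Sox17, a factor of definitive and extraembryonic endoderm, had a change of 2.08 (limma adjusted p = 0.073), with 9.58 in the deletion line and 7.96 in the full-length line at day 4 against 6.55 and 6.83 at day 0. Cxcr4 went the other way, with a fitted change of -0.90, and -1.53 in the deletion line and -0.26 in the full-length line. Cer1, Nog and Shh had mean signals below the floor and were not tested, and Noto had no probe set. The list's median was 0.82. At day 7 against day 0 none of the 11 was called. Of 11 measured genes of mesoderm derivatives 1 was called, the cardiac actin gene Actc1, which rose at day 4 by a fitted 3.51 (SE 0.60, limma adjusted p = 0.041), with 2.39 in the deletion line, where day 0 was at the floor, and 4.62 in the full-length line. Gata2, Isl1 and Kdr had changes of 1.31, 1.30 and 1.16 with adjusted p from 0.095 to 0.18. Pdgfra, Foxf1, Tcf15 and Tcf21 had negative changes, of -0.56, -0.39, -0.14 and -0.04, and the list's median was 0.67. Pdgfra changed by 0.38 in the deletion line and -1.49 in the full-length line. Hand2 and Meox1 had mean signals below the floor and were not tested.

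Among other T-box genes 8 of 14 were measured and none was called. Tbx3, a gene of naive stem cells as well as of mesoderm, had a day 4 minus day 0 change of -2.04, and the cardiac gene Tbx20 one of 1.92 (limma adjusted p = 0.11 and 0.051). Tbx18 and Tbx15 had changes of -0.78 and -0.53. Around Amot, 16 of 19 Hippo pathway genes were measured and had a median change of 0.25 at day 4. Ankrd1, a YAP target, was the 1 called, at day 7 against day 0 (log2 2.69, SE 0.39, limma adjusted p = 0.036), with 5.80, 7.54 and 7.90 in the deletion line and 6.25, 8.14 and 9.53 in the full-length line. The related Amotl1 and Amotl2 had levels between 8.37 and 9.21 and between 9.88 and 10.91. Tead4, Wwtr1 and Nf2 had changes of 1.10, 0.82 and -0.69 for day 7 over day 0 and were not called.

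Of 10 measured genes of the epithelial to mesenchymal transition 1 was called. Zeb1, a repressor of E-cadherin, fell at day 4 (log2 -2.12, SE 0.32, limma adjusted p = 0.033), while another Zeb1 probe set gave 0.10. Snai1, the transition factor of the streak, lay between the floor and 6.42, and Cdh1, which encodes E-cadherin, between 12.76 and 13.53 on all 6 arrays. Snai2, Vim and Fn1 had fitted day 4 minus day 0 changes of -1.80, -1.18 and -1.03. By line these were -2.93, -1.97 and -0.52 in the deletion line and -0.67, -0.38 and -1.54 in the full-length line. Fibroblast markers, described with the other markers, also fell at day 4. The part of fibroblasts in these values was not tested.

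Markers of other cell types moved beside Eomes, Amot and the node and endoderm genes. The extraembryonic endoderm list, 10 of 10 measured, had summed signals of 976, 6030 and 5530 on the deletion arrays of days 0, 4 and 7, and 1040, 3020 and 1990 in the full-length line. Its members Dab2, Afp and Ttr rose at day 4, and Afp, Ttr and Apoa1 were at the floor on both day 0 arrays. Hnf4a went the other way at day 4, with a fitted -0.74, and 0.15 in the deletion line and -1.62 in the full-length line. Gata4 and Gata6 changed by 0.77 and 1.44 in the deletion line and by 0.23 and 0.21 in the full-length line. The trophoblast list, 9 of 9 measured, had sums of 4050, 11500 and 17800 in the deletion line and 4160, 23000 and 42600 in the full-length line. Krt8 and Krt18, keratins of simple epithelia in general, were its 2 called members and made up 81% of the sum on the deletion day 7 array and 88.1% on the full-length day 7 array. Without them the other 7 genes summed to 3030, 2230 and 3380 in the deletion line and 2620, 1690 and 5070 in the full-length line. Of these, Tfap2c was the brightest, at 11.33, 10.57 and 11.42 in the deletion line and 11.12, 9.89 and 11.62 in the full-length line. Ascl2 was at 7.63, 8.43 and 7.62 in the deletion line and 5.85, 8.30 and 9.80 in the full-length line. Gata3 was at the floor, the floor and 6.47 in the deletion line and at the floor, 7.01 and 8.01 in the full-length line. The trophoblast factor Elf5 was at or within 0.04 of the floor on 5 arrays and at 8.22 on the full-length day 7 array. Cdx2 lay between the floor and 5.93. The part of these cells in the Eomes and Amot values was not tested, and in bulk RNA more cells of a type and more RNA per cell cannot be told apart.

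The primed epiblast list, 6 of 6 measured, had sums of 2960, 12200 and 3860 in the deletion line and 3500, 21000 and 4980 in the full-length line, with 5 genes that rose at day 4 and 0 that fell. The list includes Dnmt3b, a gene knocked out in both lines, which was not among the 5. Which part of its transcript the probe set reads was not examined. Pou5f1, the pluripotency factor, lay between 13.21 and 14.02 on all 6 arrays. The naive list, 8 of 8 measured, had sums of 72900, 51700 and 74600 in the deletion line and 79500, 41400 and 48700 in the full-length line. Klf4, Esrrb and Tfcp2l1 fell at day 4. Klf4 was still lower at day 7 than at day 0 (log2 -2.18, SE 0.18, limma adjusted p = 0.0066). The brightest genes of the sum were Zfp42, Pou5f1, Nanog and Sox2 (mean signals 16500, 13000, 11300 and 10300), and none of them was called. The summed signal of the 7 streak and mesoderm genes with a probe set was 283, 493 and 562 in the deletion line and 324, 786 and 365 in the full-length line. Eomes alone made up 53% of the sum on the deletion day 4 array and 63% on the full-length day 4 array. Without Eomes the other 6 genes summed to 212, 232 and 320 in the deletion line and 199, 291 and 215 in the full-length line. With Eomes the sum was highest at day 7 in the deletion line and at day 4 in the full-length line. In the deletion line Eomes itself read 8.03 at day 4 and 7.92 at day 7. The day 7 maximum there therefore rests on the other 6 genes and does not place a peak of the streak genes. On each array 2 to 4 of the 7 genes were at or below the floor, so the sums without Eomes were not ranked. The fibroblast list, 7 of 7 measured, summed to 13600, 826 and 1950 in the deletion line and 5890, 915 and 1520 in the full-length line, and 5 of its genes fell at day 4. The neuroectoderm list, 5 of 6 measured, lay between 1240 and 2050 with no called gene.

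**Figure D4:**
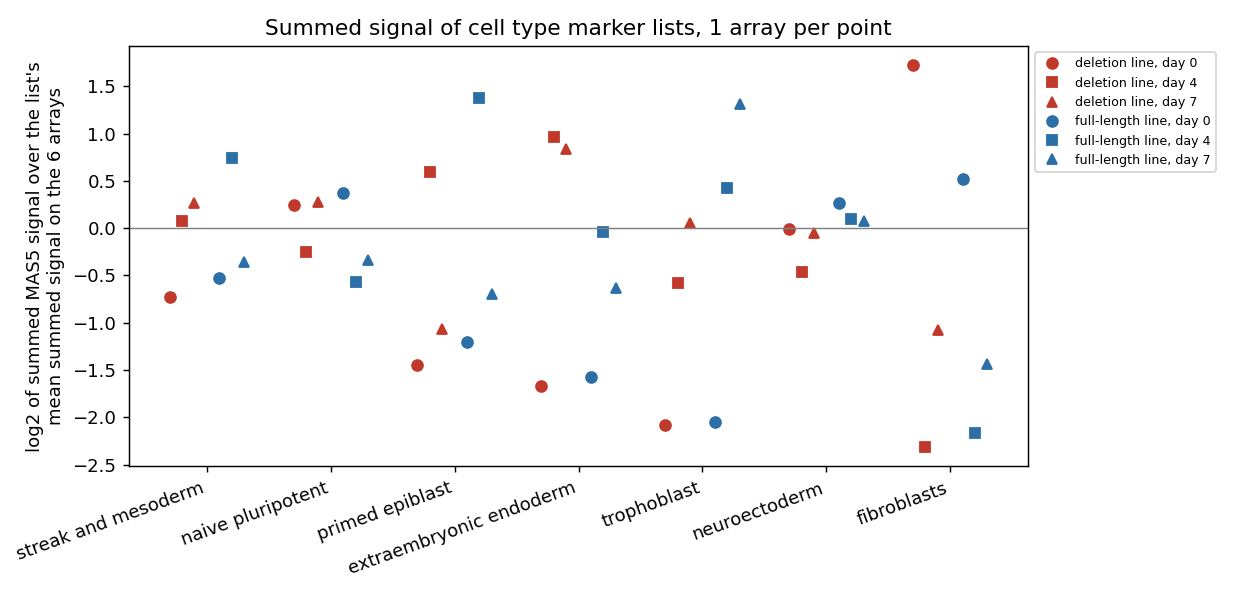
Log2 of the summed MAS5 signal of each cell type marker list over that list's mean sum on the 6 arrays (y axis), by list (x axis), for the deletion line (red) and the full-length line (blue) at days 0 (circles), 4 (squares) and 7 (triangles), 1 array per point. The streak and mesoderm sum is highest on the full-length day 4 array (786, of which Eomes is 63%), where the primed epiblast sum is also highest (21000).

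The genes whose levels ran most like each measured member over the 6 arrays were named as a description, among 5282 genes spanning at least log2 1. Eomes was followed by Rdh10 (r = 0.990), which makes an enzyme of retinoic acid synthesis, Bcl11b (r = 0.976) and Map3k20 (r = 0.974). Amot was followed by Endod1, Akr1b10 and Tnk1 (r = 0.997, 0.995 and 0.991). Evx1 was followed by Hepacam, Ubtfl1 and Pramel18 (r = 0.986, 0.976 and 0.957), and Mesp1 by Itpk1, Phlda2 and Nup210 (r = 0.992, 0.979 and 0.969). Evx1 was above the floor on 2 arrays only. Hepacam, Ubtfl1 and Pramel18 were at the floor on both day 0 arrays and the deletion day 4 array, as was Evx1. The Evx1 values of r thus rest largely on arrays tied at the floor. Between members, r was 0.93 for Eomes with Amot and -0.57 for Eomes with Mesp1. The 6 points share the 2 lines and 3 days, and these genes were picked as the highest of 5282 correlations over 6 arrays each.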

How the data were processed

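Gene expression in 6 samples, 1 per line and day, was read from the deposited table of log2 values, MAS5 signals that the authors made, per the submitters' processing notes. The MAS5 version, scaling target, log base and handling of low values are unstated in the sources used here. Log2 was read from the values, which ran from 0 to 15.68 with a trimmed mean of 2 to their power (2% left out at each end) of 496.7 to 497.9 on every array, as after global scaling. Such scaling makes levels relative to each array's mean. Of 45037 probe sets, 350 to 514 per array were listed at 0.

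Probe sets with 1 symbol in the platform annotation (34945) named 18193 genes, while 932 had several symbols and 9160 had none. No detection calls were used. Values were floored at a signal of 41.2 (log2 5.37). In R 4.3.3 and limma 3.58.1, line and day were additive factors over 6 arrays, with trended moderated variances, two-sided p-values and a Benjamini-Hochberg threshold of 0.05 over 13277 measured genes. Residual degrees of freedom were 2, and 5.63 more came from the prior. The labels name no separate cultures. The p-values set a mean change against the difference between the lines' courses and technical noise together. The number of arrays limits precision. The code of the fit was run on simulated data with the same spread for every gene and large changes. That run does not test how the calls hold in these data.

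Named genes were all members, list genes that were called or had one of the 4 largest changes against day 0, the 3 genes most like each measured member, and Dnmt1. Amotl1, Amotl2, Snai1, Cdh1, Cxcr4, Pdgfra, Foxf1, Tcf15, Tcf21, untested list genes and single markers were named after their values were seen. Members and lists were chosen with earlier results of these data known.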

Additional observations from a re-analysis of the deposited data

Results flagged for a closer look

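The lines moved in opposite directions for several results, 1 array per line and day, and in none of them was the difference tested. From day 4 to day 7 Evx1 had log2 changes of 1.05 in the deletion line and -0.83 in the full-length line, each resting on 1 array above the floor, and Mesp1 had -0.49 and 0.23. Over the same days Lefty1 had 2.13 in the deletion line and -1.45 in the full-length line, Nodal 0.72 and -0.95, and Fgf8 1.00 and -2.55. From day 0 to day 7 Lefty1 had 0.93 in the deletion line and -1.96 in the full-length line, and Bmpr1a -0.08 and 0.79. Over those days the dimmer Amot probe sets had 0.02 in the deletion line and -0.44 in the full-length line at one, and 0.61 and -0.35 at the other. From day 0 to day 4 Lef1 had 0.39 in the deletion line and -0.52 in the full-length line.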

How the results depend on the processing

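The fits were repeated under 15 alternatives, 6 of which left out 1 array each. The number of members called at day 4 over day 0 was 1 and became 0 with probe sets averaged, without the filter on dim genes, without a variance trend and without a variance prior, and lay between 0 and 1 when arrays were left out. At day 7 over day 0 it was 1, kept with arrays scaled to equal medians and 0 under each of the other 14. At day 7 over day 4 and between lines it was 0 throughout. Of 232 single member values, 201 kept their direction and side of the threshold, 22 lost a call and 9 turned sign. Only Amot had calls to lose, so all 22 were Amot values. Most of the 201 were values that were not called in the main fit either. Evx1 turned to -0.26 for day 4 over day 0 without the full-length day 4 array, to -0.57 and -0.63 for day 7 over day 4 without the deletion line's day 4 or day 7 array, to -0.21 for day 7 over day 0 without the deletion line's day 7 array, and to -0.42 between lines without either day 7 array. Mesp1 turned to 0.01 and 0.27 for day 7 over day 4 without the deletion line's day 4 or day 7 array. With 1 array left out at a time, Evx1 ran from -0.26 to 1.10 for day 4 over day 0, from -0.63 to 0.85 for day 7 over day 4, from -0.21 to 1.26 for day 7 over day 0 and from -0.42 to 0.53 between lines, and Mesp1 from -0.53 to 0.27 for day 7 over day 4. Between lines Eomes turned to 0.01 with probe sets averaged and to 0.36 at its dimmer probe set, and a dimmer Amot probe set gave -0.21 for day 7 over day 0. The cause was not tested. The number of members at or above the floor was 4, 8 with the floor at the 20th percentile and 2 at the 60th. Over all genes, 210 calls at day 4 over day 0 lay between 0 and 319 over the alternatives, 137 at day 7 over day 0 between 0 and 227, 2 at day 7 over day 4 between 0 and 44, and 0 between lines between 0 and 3. The fits of the days compare days within each line, with the line as a block. Without that block the 210 calls at day 4 over day 0 became 18. No replicate numbers are shared between groups in the labels, so no further pairing was made. The marker sums without Eomes or without Krt8 and Krt18 were added after the data were seen.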
